A study of Mus musculus with 2 samples.

Results

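The 9 genes described here encode proneural transcription factors, their partners in neuronal reprogramming, and the REST repressor with its CoREST corepressors. They are Neurog1, Neurog2, Neurod1, Neurod2, Myt1l, Pou3f2, Rest, Rcor1 and Rcor2, and were chosen by gene symbol among the 20823 genes that the array probes could be named for. All 9 had probes, 16 in total, and every one of these probes was a single spot on each array. Both samples were E14-derived mouse ES cells of 1 Baf53a cKO clone, in which both Baf53a alleles were mutated with CRISPR and a CRISPR-resistant Baf53a cDNA was kept under Tet-off control. The cells received a CAG-promoter vector for Myc-tagged Baf53a or for Myc-tagged Baf53b, and 1 µg/mL Tet was added 48 h later for 6 days in medium with serum and LIF, so that both samples carried the mutated alleles and were under Tet to shut off the inducible cDNA. Baf53a and Baf53b are actin-related subunits of the BAF chromatin remodeling complex, Baf53a in proliferating cells and Baf53b in neurons. RNA of each sample was hybridised to 1 single-colour array, so no difference has a replicate check and no test was made.

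Proneural basic helix-loop-helix (bHLH) factors pair with E proteins, bind E-box sequences and switch on neuronal genes. They are held back by Notch signalling through Hes proteins, and by Id proteins. REST binds the RE1 sequence in neuronal genes and recruits CoREST and Sin3 complexes with histone deacetylases and demethylases. These complexes repress such genes in ES cells and in most cells outside the nervous system. The exchange of Baf53a for Baf53b takes place as progenitors leave the cell cycle to become neurons, and the comparison asked whether Baf53b in ES cells was accompanied by a difference in these factors.

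The processed signal of each spot, a background-subtracted brightness, was set on a log2 scale with the 75th percentile of its array at 0. That percentile was a signal of 1161 with Baf53a and 1127 with Baf53b. A probe was measured on an array when it carried the scanner software's flag for signal well above background, and 29247 of 39411 probes (74.2%) were measured on both arrays. All differences are Baf53b- minus Baf53a-expressing cells. The median over these probes was -0.0013, with an SD of 0.206, and 50.3% were lower in Baf53b-expressing cells. The spread depended on brightness. In 5 equal groups from dim to bright the SD was 0.324, 0.208, 0.154, 0.124 and 0.108, and the median moved from 0.10 in the dimmest to -0.06 in the brightest group. Each member difference is therefore set beside the median and SD of its own brightness group. The values after ± are the error estimated by the scanner software for a spot, not a replicate error.

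The genes for the Baf53 forms were set against the labels, and the probe for Baf53b followed them while that for Baf53a was about as bright in both samples. The Actl6b probe, for Baf53b, had a signal of 3.40 in Baf53a-expressing cells, not well above background, against 119 with Baf53b, at least 14.5-fold brighter. The Actl6a probe, for Baf53a, had signals of 3806 and 3600, a difference of -0.04, and so gave no check of the label of Baf53a-expressing cells. Whether this probe tells transcripts of the mutated alleles from those of the vector was not tested. All 6 ES cell markers (Pou5f1, Nanog, Sox2, Zfp42, Esrrb, Klf4) were measured on both arrays, and their levels, each as a multiple of the 75th percentile, summed to 162 and 150. The same sums were 1.19 and 1.16 over 5 neural progenitor markers. Over 9 neuron markers, 8 of them measured on both arrays, they were 37.6 and 37.1. Most of the neuron sum came from Stmn2, Snap25 and Tubb3, with log2 levels of 4.17, 3.29 and 2.97 in Baf53a-expressing cells. The other neuron markers measured on both arrays lay below the 75th percentile there, from -0.04 for Elavl3 to -5.80 for Map2. Sums of different lists cannot be ranked, since they rest on different probes. For 7 primitive endoderm markers, all higher in Baf53b-expressing cells with a median difference of 0.27, the sums were 2.04 and 2.42. The part of these markers in the differences below was not tested, and in bulk RNA fewer cells of a type and less RNA per cell cannot be told apart.

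Across the 9 genes no probe differed 2-fold. Of 16 member probes, 11 were measured on both arrays, 5 on neither and 0 on 1 array only, so that 8 of 9 genes had a value in both samples. Among all probes measured on both arrays, 74 (0.253%) were at least 2-fold apart in either direction. The member differences ranged from -0.38 for Neurod2 to 0.47 for Myt1l with a median of -0.10, and 3 probes were higher and 8 lower with Baf53b. With arrays centred on their medians the split was 2 higher and 9 lower, and with normexp background correction it was 6 and 5. Of the 11 probes, 8 lay within 1 SD of the median of their brightness group and 10 within 2 SD, and Neurod2 was the exception to the latter.

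**Figure D1:**
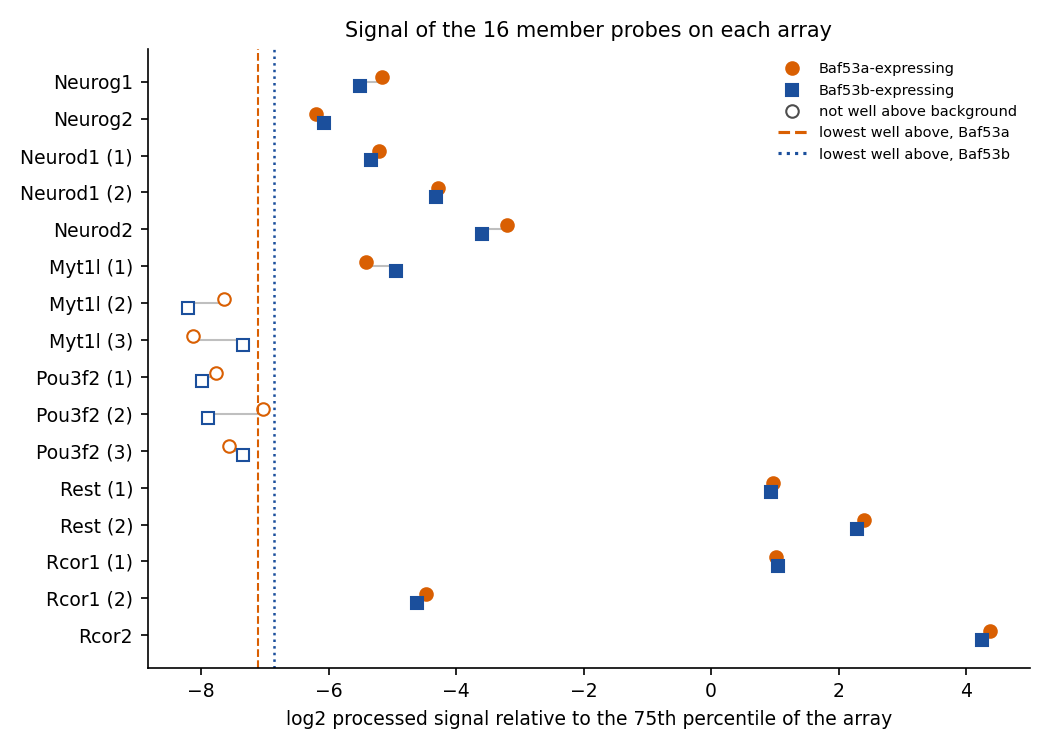
Level of each member probe on both arrays, as log2 processed signal relative to the 75th percentile of the array, with open symbols for signals not well above background and vertical lines at the lowest signal well above background on each array. Each symbol is 1 array. Levels of different probes cannot be ranked against each other, and within a probe measured on both arrays the symbols are at most 0.47 apart, for Myt1l.

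Neurog1 and Neurog2 encode neurogenins, which start neurogenesis in cranial sensory ganglia, dorsal telencephalon and spinal cord. The Neurog1 signal was 32.4 ± 3.86 with Baf53a and 24.8 ± 3.18 with Baf53b, a log2 difference of -0.34 ± 0.25. The Neurog2 signal was 15.7 ± 2.68 and 16.8 ± 2.67, a difference of 0.13 ± 0.34. Both probes belonged to the dimmest group, whose median was 0.10. In either direction, 26.5% of its probes differed between the arrays by at least as much as Neurog1 and 64.4% as much as Neurog2.

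Neurod1 and Neurod2 act after the neurogenins, in the differentiation of neurons, and Neurod1 also in that of endocrine cells. One Neurod1 probe gave 31.4 ± 3.77 and 27.9 ± 3.42, a difference of -0.13 ± 0.25. Its other probe gave 59.7 ± 6.34 and 56.8 ± 6.04, a difference of -0.03 ± 0.22. These were 0.0999 apart, and both were lower in Baf53b-expressing cells. With normexp both Neurod1 differences changed sign.

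Neurod2 stood farthest from the probes of its own brightness. Its signal was 126 ± 12.7 with Baf53a and 93.7 ± 9.57 with Baf53b, 1.30-fold lower in the latter, a difference of -0.38 ± 0.21 where the median of the group was 0.05. In that group 6.89% of the probes differed between the arrays by at least as much, in either direction. The Neurod2 difference was -0.26 with normexp and was negative in every alternative. Over the 5 bHLH probes, 4 were lower in Baf53b-expressing cells and the median difference was -0.13. With normexp 2 of the 5 were lower and the median was 0.0036, and with quantile normalization 4 were lower and it was -0.24.

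Myt1l is a zinc finger factor that represses non-neuronal genes, and Pou3f2 (Brn2) is a POU-domain factor. Both are used in the conversion of fibroblasts to neurons. Of 3 Myt1l probes, 1 was measured on both arrays. Its signal was 27.3 ± 3.69 with Baf53a and 36.6 ± 4.37 with Baf53b, 1.38-fold higher in the latter, a difference of 0.47 ± 0.26. In its group, the dimmest, with a median of 0.10, 13.8% of probes differed between the arrays by at least as much, in either direction. The other Myt1l probes had signals of 5.79 and 3.80, and of 4.16 and 6.96, with the Baf53a-expressing cells first in each pair, and were not well above background on either array.

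Pou3f2 was not well above background in either sample by any of its 3 probes. Their signals were 5.33 and 4.42, 8.84 and 4.73, and 6.11 and 6.90, again with Baf53a-expressing cells first. The lowest signals flagged as well above background were 8.45 and 9.75, in the same order, so that 1 of these signals lay above the lowest flagged one without carrying the flag. No fold is given for this gene.

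**Figure D2:**
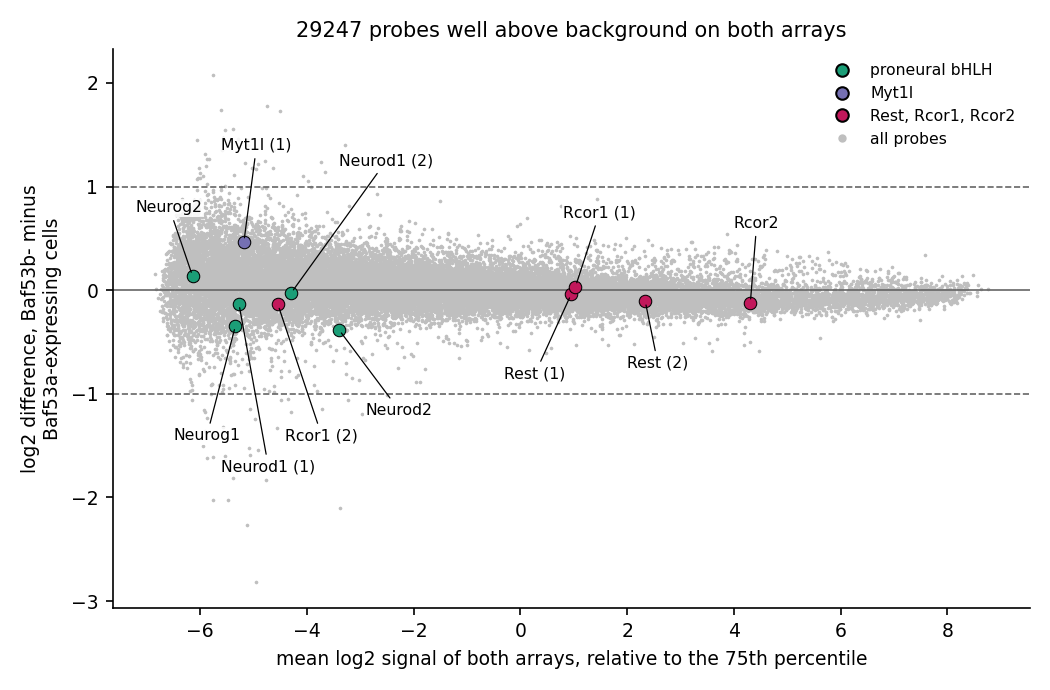
Log2 difference, Baf53b- minus Baf53a-expressing cells, against the mean log2 signal of both arrays relative to the 75th percentile. Grey points are the 29247 probes measured on both arrays, coloured points the 11 member probes, numbered where a gene has several, and dashed lines mark 2-fold. The grey cloud widens to the left, where the bHLH and Myt1l probes lie, and no coloured point reaches a dashed line.

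Rest, the repressor itself, was measured by both of its probes. One gave 2276 ± 228 and 2153 ± 215, a difference of -0.04 ± 0.20, and the other 6085 ± 609 and 5500 ± 550, a difference of -0.10 ± 0.20. The Rest probes lay in the brighter groups, whose medians were -0.02 and -0.06. In these groups 71.9% and 37.6% of probes differed between the arrays by at least as much, in either direction. The Rest differences were 0.0657 apart. Both were negative under every alternative. The SD of a difference between single spots, from probes with at least 5 spots on each array, was 0.066 and 0.059 in these groups. Both Rest differences lay within 1 SD of the median of their group, so Rest did not stand out from probes of its brightness.

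Rcor1 and Rcor2 encode CoREST proteins, which join REST to the demethylase Kdm1a and to histone deacetylases. The brighter Rcor1 probe gave 2347 ± 235 and 2333 ± 233, a difference of 0.03 ± 0.20, which was negative with arrays centred on their medians. The dimmer Rcor1 probe gave 52.3 ± 5.68 and 46.2 ± 5.08, a difference of -0.14 ± 0.22, which was 0.06 with normexp. The probes thus had opposite signs and were 0.170 apart. Rcor2 gave 23985 ± 2398 and 21382 ± 2138, a difference of -0.12 ± 0.20. In the brightest group, whose median was -0.06, 28.2% of probes differed between the arrays by at least as much, in either direction. Over the 5 Rest and CoREST probes, 4 were lower in Baf53b-expressing cells and the median difference was -0.10. All 5 were lower with centring on the median and 3 with normexp, with medians of -0.15 and -0.05.

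**Figure D3:**
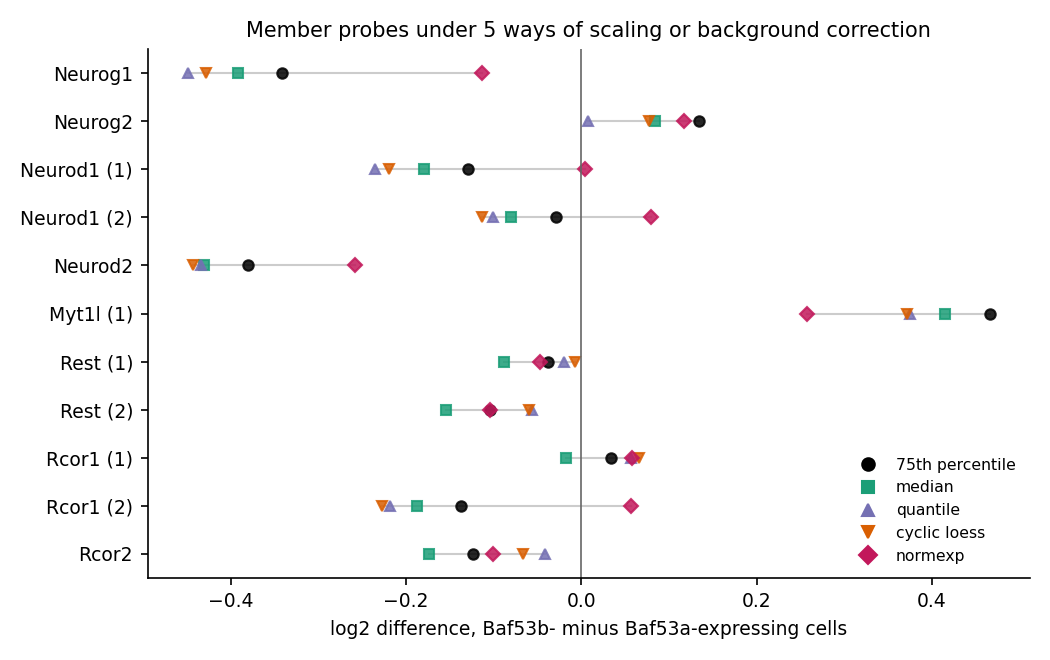
Log2 difference of each of the 11 member probes, Baf53b- minus Baf53a-expressing cells, under 5 ways of scaling the arrays. Each symbol is 1 scaling. Myt1l stays above 0 and Neurod2 below 0 throughout, and both Neurod1 probes and both Rcor1 probes have symbols on either side of 0.

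The promoters of 8 of the 9 genes were in the RefSeq promoter table (assembly GRCm38.p6, 300 bases around each start, most of them before it), with 12 starts, 5 of them of Myt1l. Both strands were searched for the E-boxes CAGATG and CAGCTG, for the octamer ATGCAAAT bound by POU factors, and for RE1. CAGATG was in 17.2% of all 32851 promoters, and among the members in those of Neurod2 and Myt1l. CAGCTG, a palindrome, was in 16.3% of all promoters and in 1 Myt1l promoter. The octamer was in 1.74% and, among the members, in promoters of Neurog1 and Myt1l. RE1 was in 21 promoters (0.0639%) and in 0 of the 12. Of several E-box matches in Myt1l promoters 1 is shown. The windows below hold matches in the genes with the widest differences in the comparison, Neurod2, Myt1l and Neurog1. These windows are on the strand of the gene, with the motif in capitals. They are chr11:98329746-98329775 on the minus strand, chr12:29533204-29533233 and chr12:29528256-29528285 on the plus strand, and chr13:56252300-56252329 on the minus strand. The octamer of Myt1l lies on the reverse strand.
Neurod2 E-box: agtagagagtgaCAGATGgcggcgggtccc
Myt1l E-box: ccacgcgccaggCAGATGctcttcagagga
Myt1l octamer: aattcagcctcATTTGCATgactgataagc
Neurog1 octamer: gagcataaattATGCAAATagcaggcgccg

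The Neurod2 motif began 118 bases and the Neurog1 motif 138 bases before the start. A match describes these letters only. The 300-base promoters held 32 CpGs in Neurog1, 31 in Rcor1, 26 in Neurod1, 24 in Pou3f2, 21 in Rcor2, 16 in Neurod2, 10 in Neurog2 and 4 to 13 in Myt1l. Over all promoters the median was 7 and the quartiles were 3 and 20, so that Neurog1, Rcor1, Neurod1, Pou3f2 and Rcor2 lay above the upper quartile.

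The other neural bHLH factors were spread on both sides of 0, with none past 2-fold, which 0.193% of all genes were. For the lists below a gene is the mean difference of its measured probes, and the median over all 16608 genes measured on both arrays was -0.0031. Of all these genes 50.8% were lower in Baf53b-expressing cells. Of 14 such factors 10 were measured on both arrays, 6 higher and 4 lower with Baf53b, with a median of 0.06. Quantile and cyclic loess normalization gave 4 higher, and normexp 8. Atoh1, which specifies cerebellar granule cells and hair cells, had levels of -4.20 and -3.66, a difference of 0.54, and Bhlhe22, a factor of cortical projection neurons, one of 0.45. Bhlhe22 lay in the dimmest group and was 0.27 with normexp. Neurog3, which specifies endocrine cells of the pancreas, had levels of -0.87 and -1.14, a difference of -0.26, and Olig1, an oligodendrocyte factor, one of -0.21. Atoh7 and Bhlhe23 were measured only with Baf53b, where they stood at least 1.22-fold and 1.33-fold higher. A bound of 2-fold or more was found for 10.1% of all probes measured on 1 array only. Neurod4 and Neurod6 were measured on neither array.

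E proteins, Id proteins and Hes and Hey repressors, the partners and antagonists of the bHLH factors, were measured for 13 of 14 genes. Of these 7 were higher and 6 lower, with a median of 0.0052, and the count of higher genes was 5 with centring on the median and 8 with normexp. The widest differences were in the dim groups, 0.39 for Hes3 and -0.34 for Hey2, both members of the Hes and Hey family of repressors, and Hey2 was 0.08 with normexp. Hes5, a Notch effector of neural progenitors, had a difference of 0.17, and Id4, which blocks bHLH dimers, one of -0.12. Heyl was measured on neither array.

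Notch ligands, receptors and cofactors were measured on both arrays for 18 of 19 genes, 12 of them higher and 6 lower, with a median of 0.04. Centring on the median gave 9 higher and a median of -0.01. Maml3 and Maml2, coactivators of Notch, had differences of 0.32 and -0.33, which were 0.18 and -0.02 with normexp. The Maml2 value came from 1 of its 2 probes, in the dimmest group. The receptors Notch2 and Notch4 had differences of 0.24 and -0.20. Dll4, a ligand, was measured only with Baf53b, at least 1.60-fold higher.

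Genes that proneural factors are known to activate were measured on both arrays for 15 of 16. Of these 8 were higher and 7 lower, with a median of 0.03, and quantile and loess normalization gave 6 higher. Ebf2, a factor of early neurons, had a difference of 0.42 and Eomes, a factor of intermediate progenitors, one of 0.25. Ebf2 lay in the dimmest group and was 0.18 with normexp. Tbr1, of cortical neurons, had a difference of -0.36 and Dll3, which acts on Notch within the cell, one of -0.19. The Tbr1 value came from 1 of its 2 probes, in the dimmest group, and was -0.02 with normexp. Dcx, which binds microtubules in migrating neurons, was measured only with Baf53b, at least 1.49-fold higher. Of the relatives of Myt1l and Pou3f2, 6 of 9 genes with a probe were measured on both arrays, 4 of them higher (5 with normexp), with a median of 0.12. They included Pou4f3 at 0.48, Pou3f3 at 0.39, and Pou3f1 and Pou4f1 at -0.03 each, all POU factors. Pou4f3 and Pou3f3 lay in the dimmest group, whose median was 0.10 and SD 0.324. Pou3f1 and Pou4f1 lay in the fourth group, with an SD of 0.124. Myt1, St18 and Pou3f4 were measured on neither array.

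The corepressor machinery of REST lay in a narrow range around 0, as bright probes did in general. None of its measured probes was in the dimmest group, and most of its genes lay wholly in the fourth and brightest groups. There the SD over all probes was 0.124 and 0.108, with medians of -0.02 and -0.06. All 18 listed genes were measured on both arrays, 7 higher and 11 lower, with a median of -0.03 and 0 past 2-fold. The differences ran from -0.19 for Ctdsp2, a phosphatase, and -0.15 for Hmg20b, a subunit of the CoREST complex, to 0.04 for Smarca4, the BAF ATPase Brg1, and 0.11 for Rcor3, the other CoREST gene. Centring on the median left 1 gene higher and quantile normalization 9, and Smarca4 was -0.01 with the former and -0.02 with normexp. The 6 genes of REST turnover and splicing had a median of 0.0014, with 3 higher and 3 lower (1 higher with centring on the median, 4 with normexp). Btrc, part of the ubiquitin ligase that degrades REST, had a difference of 0.12 and Srrm4, which splices Rest in neurons, one of 0.04. The kinase Csnk1e had -0.06 and the deubiquitinase Usp15 -0.03.

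REST target genes did not lie to one side. Of 34 with a probe 26 were measured on both arrays (76.5%, against 79.8% of all genes with a symbol), 14 higher and 12 lower with Baf53b, with a median of 0.01. Centring, quantile and loess scaling each gave 10 higher, with medians of -0.04, -0.04 and -0.05, and normexp gave 17 and 0.04. The 8 measured on neither array included Syt4, Gria2, Unc13a, Glra1, Hcn4 and Calb1, synaptic and channel genes among others.

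Bsn, a scaffold protein of the presynaptic active zone, was the 1 REST target past 2-fold. Its level was -6.47 with Baf53a and -5.20 with Baf53b, a difference of 1.27 from a probe of the dimmest group, which held 56 of the 74 probes past 2-fold. With normexp, whose offset of 50 in itself narrows the differences of dim probes, the difference was 0.42. Scg2, a secretory granule protein, had a difference of 0.67 and also lay in the dimmest group. Chrm4, a muscarinic receptor, had levels of -2.73 and -3.58, a difference of -0.85, and Chrnb2, a nicotinic receptor subunit, one of -0.26. Normexp gave 0.13 for Scg2, -0.41 for Chrm4 and -0.05 for Chrnb2. Other targets were in the brightest group and are named after their values were seen. They were Snap25, a synaptic fusion protein, with 0.35, Stmn2, a microtubule regulator of growing axons, with -0.20, and Tubb3, neuronal tubulin, with -0.15.

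**Figure D4:**
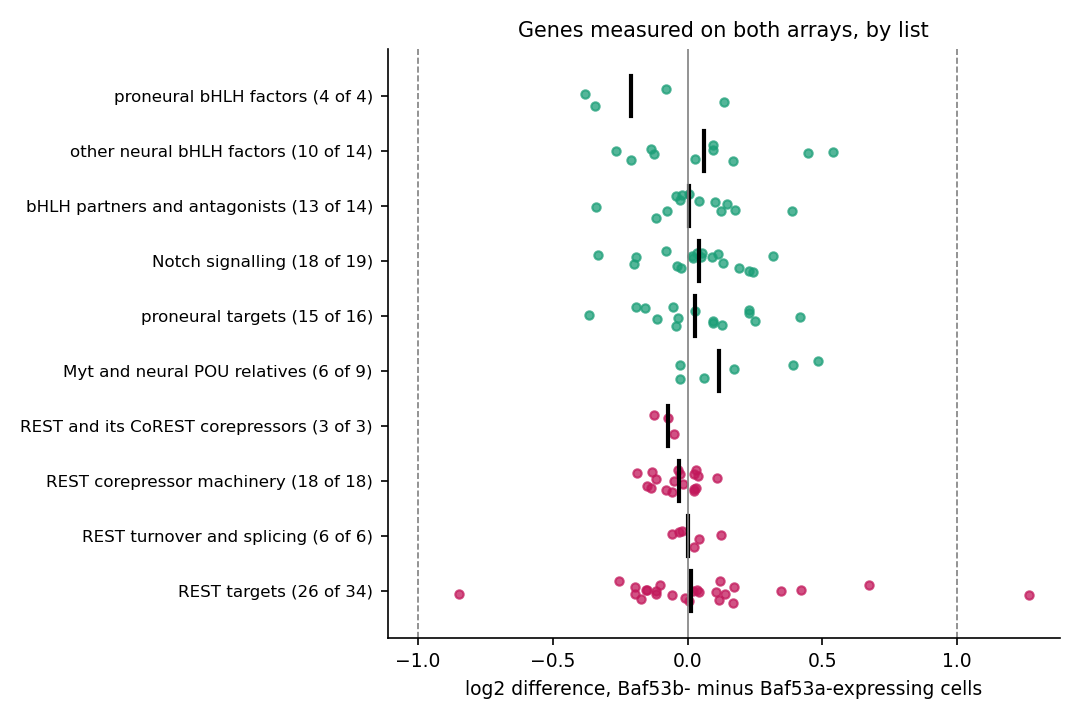
Log2 difference, Baf53b- minus Baf53a-expressing cells, of each gene measured on both arrays, by list. Points are genes, vertical bars list medians and dashed lines 2-fold. The lists differ in the brightness of their probes, on which the spread depends. The medians run from -0.21 for the 4 proneural bHLH members (-0.04 with normexp, -0.30 with quantile normalization) to 0.12 for the Myt and POU relatives, the corepressor genes span from -0.19 to 0.11, and the REST targets spread from -0.85 for Chrm4 to 1.27 for Bsn.

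Among the 24 REST target genes in the promoter table, RE1 was found in 1, Gria2, a glutamate receptor subunit, on the reverse strand and 170 bases before the start (chr3:80802982-80803011, minus strand, GRCm38.p6). The window is shown because it holds the match to the REST motif, in capitals.
Gria2 RE1: aaagcgCTGTCCGCGGTGCTAAAatcgaat

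Gria2 was not well above background on either array, and RE1 sites outside these windows were not searched. Of the host genes of microRNAs that REST represses, the probe of Mir9-3hg had levels of -3.02 and -3.35, a difference of -0.33, and that of Mir124-2hg was not well above background on either array.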

How the data were processed

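Per the file headers, the authors extracted 1-colour scans with Agilent Feature Extraction (version 11.0.1.1). The deposited intensity of each spot is background-subtracted and detrended, and each spot carries flags of 0 or 1. The authors also deposited a table of ratio values, each the signal divided by 1 number per array (1160 and 1126). From the intensities, control and outlier spots were left out (173 and 143 of 43020 gene spots were outliers), log2 signals were averaged per probe and set relative to the array's 75th percentile. Detection needed the flag on at least 50% of spots. A probe measured on 1 array was given a lower bound against the lowest signal well above background. Probes were named through RefSeq (GRCm38.p6), with no coordinates taken for genes, since the array was designed on another build.

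The members and lists were chosen with earlier results of these data known. The text names all members, Actl6a and Actl6b, and in each list the 2 genes with the largest and the 2 with the smallest difference; others were named after their values were seen. Alternatives were centring on the median, quantile and cyclic loess normalization, dropping or tightening the filter on dim probes, keeping outlier spots, a weaker detection flag, normexp with an offset of 50 on the median signal (the mean signal was not used here), the value table and 1 value per gene. Python 3.11.15, numpy 2.4.6, pandas 2.3.3, R 4.3.3 and limma 3.58.1 were used, and the steps were tested on simulated data. The changes planted there were wider than any member difference, so differences of the size reported for members were not covered. Protein sequences were not analysed here. Precision is limited by 1 array per condition, and no interval was computed. A few listed genes are counted but not reported here by name.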

Additional observations from a re-analysis of the deposited data

How the results depend on the processing

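No paired analysis was possible because each condition had a single array, for which reason no replicate could be left out either. The count of 0 member probes past 2-fold held under every alternative run. The widest member difference, 0.47 in size, was 0.86 without the filter on dim probes and 0.86 with the weaker detection flag, both of which gave a value to all 16 probes, and 0.26 with normexp. The median over members was -0.15 with centring on the median and 0.0036 with normexp, where 8 of 11 signs were as reported. Of 93 values of single member probes under alternatives, 90 moved by less than the SD of a difference between single spots, taken from probes of like brightness with at least 5 spots on each array (0.119 and 0.0590 in the second and the brightest group), and Neurod2 (-0.26, normexp), a Rcor1 probe (0.06, normexp) and Rcor2 (-0.04, quantile) moved by more. Over all probes, 74 past 2-fold became 1337 of 39411 without the filter, 754 with the weaker flag, 7 of 22085 with the stricter filter and 2 with normexp. The normexp offset of 50 was above the signals of dim probes such as that of Myt1l (27.3 and 36.6). Adding it narrows their log2 differences by arithmetic, so that narrowing is no separate check. Signal over background left 5 member probes, of Myt1l and Pou3f2, without a difference.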

Other observations

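Of the 158 genes of the members, lists and markers, each counted once, 39 had 2 or more probes measured on both arrays. Their probes had a median gap of 0.12 on the log2 scale, and in 19 of the 39 genes the probes had opposite signs. In 3 REST targets the gap was over 0.5. The sodium channel gene Scn2a had differences of -0.44 and 0.48, the calcium pump gene Atp2b2 of -0.24 and 0.48, and the chloride transporter gene Slc12a5 of -0.47 and 0.08.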
